A study of Arabidopsis thaliana with 6 samples.

Results

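Switched-on transcripts of the double mutant were taken as those whose probe sets lay under a limit of signal in wild-type rosettes of Arabidopsis thaliana and above it by a set margin in rosettes of the apk1 apk2 double mutant. A probe set is the group of short probes that reads 1 transcript on an Affymetrix ATH1 array, and its signal is an intensity on a linear scale. A probe set was a member if its signal lay under the array's own 40th percentile on all 3 wild-type arrays and reached at least 1.5 times that percentile on all 3 mutant arrays. The 40th percentile, called the limit here, lay between 16.9 and 19.4 over the 6 arrays. It is not a measured background, and a signal under it was read only as low. There were 21 members among the 22810 probe sets of the array.

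The tested plants came from the insertion lines salk_053427 crossed with salk_093072 and carry disrupted copies of both APK1 and APK2, while the controls were Col-0. Each genotype had 3 arrays, each array read RNA pooled from 10 whole rosettes, and the plants were 35 days old, grown at 22 °C with 10 h of light and cut 4 h after the lights came on, before bolting. The mutant is 1 combination of alleles, and separate growth batches are not stated in the labels, so the spread between arrays is that between pools. No probe set was named for APK1 or APK2, so the labels were not checked against the disrupted genes. RCA, the activase of the carbon-fixing enzyme of leaves, had 6277 ± 729 in the mutant and 6216 ± 916 in Col-0 (mean signal ± SD, n = 3 arrays each, as in all such values here). SBPASE, a Calvin cycle phosphatase and the other leaf marker with a named probe set, had 2412 ± 214 in the mutant and 3023 ± 167 in Col-0 and was lower at an adjusted p under 0.05 (log2 change −0.33, adjusted p = 0.0245 with limma, and 0.00542 to 0.132 over its alternatives). The root-hair expansins EXPA7 and EXPA18, the root markers whose probe sets could be named, lay between 1.60 and 12.7 in the mutant and between 1.14 and 9.66 in Col-0, under the limit on all 6 arrays.

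APS kinases make PAPS, the activated sulfate that sulfotransferases place on glucosinolates, flavonoids, peptides and hormones. Each transfer leaves the nucleotide PAP, which phosphatases of the SAL1 type break down. Members are described below by the kind of their product. The groups are proteins of the pathogenesis-related kinds or with such a domain, and enzymes that include a hydroxylase of specialised metabolism. A PAP phosphatase relative and proteins of transport and calcium binding follow.

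Of 22746 probe sets that are no array controls, 8398 lay under the limit on all Col-0 arrays. In the mutant 7830 of these were again under it on all 3 arrays, 74 were at or above it on all 3, and 24 reached 1.5 times it, which is 0.106% of all non-control probe sets. Leaving out 3 of the 24 by name gave the 21 members. The reverse pattern, under the limit on all mutant arrays and at 1.5 times it or more on all Col-0 arrays, was met by 6 probe sets. Because the limits fixed the contrast between genotypes, no test of that contrast is given for any member, and 0.106% is a description of how rare the pattern was.

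The members lay in the middle of the signal range in the mutant and in its dim part in Col-0. Their mean signals in the mutant lay between 31.4 and 106, with a median of 53.7, which placed them between percentiles 48.8 and 74.2 of all non-control probe sets. In Col-0 their means lay between 2.03 and 15.4, with a median of 11.2. Set against the limit, their signal in the mutant was at least 1.81-fold to at least 6.15-fold higher, with a median of at least 2.80-fold. These folds are lower bounds, computed from the mean log2 signal in the mutant over the mean log2 limit of the Col-0 arrays, and the rule alone makes them 1.5 or more, apart from small differences of the limit between arrays. Signals of different probe sets are not a scale of transcript amount, so the order of members is an order of signal only. In pooled rosettes a gene switched on in few cells and a weak level in many cells cannot be told apart.

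**Figure D1:**
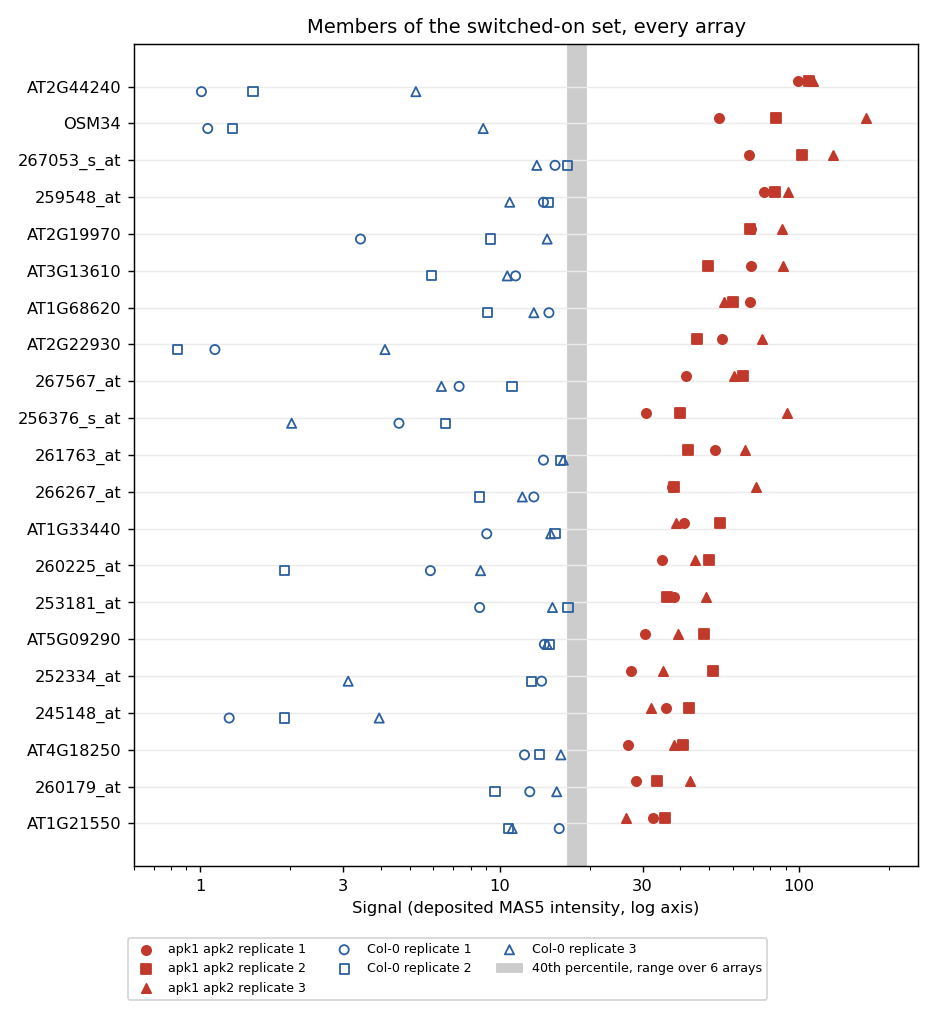
Signal of each of the 21 members on every array (log axis), in order of mean signal in the double mutant; filled red symbols are the 3 apk1 apk2 arrays, open blue symbols the 3 Col-0 arrays, and the grey band is the range of the 40th percentile over the 6 arrays (16.9 to 19.4). All mutant signals lie right of the band, from 26.4 upward, and all Col-0 signals lie left of it or at its left edge, at 16.9 or below, as the rule requires.

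AT2G44240, which encodes a protein with a neprosin-type domain and no settled function, had the highest mean signal of the members in the mutant. On mutant replicate 3 OSM34 (167) and 267053_s_at (130) were higher. AT2G44240 had 99.0, 108 and 111 in the mutant, against 1.01, 1.5 and 5.25 in Col-0. The mutant arrays differed little, and the lowest of them was 18.8 times the highest Col-0 array. Its bound was at least 6.15-fold, from 106 ± 6.34 in the mutant and 2.59 ± 2.32 in Col-0.

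Proteins of the pathogenesis-related kinds, or with a domain of such a kind, made up the next group. OSM34 encodes an osmotin-like protein of the thaumatin family (PR-5), whose members are known for antifungal activity and for accumulation under salt stress. Its signal was 53.8, 83.5 and 167 in the mutant, against 1.06, 1.28 and 8.81 in Col-0. The mutant arrays spread 3.11-fold from the lowest to the highest, the widest among named members. AT2G19970 encodes a protein of the CAP family, to which the salicylate marker PR1 belongs. It had 69.0, 68.5 and 87.5 in the mutant, against 3.43, 9.30 and 14.4 in Col-0, at least 4.32-fold higher. AT4G18250, a receptor-like kinase with a thaumatin-like outer domain, was one of the dimmest members. Its signal was 26.8, 40.9 and 38.3 in the mutant, against 12.1, 13.6 and 16 in Col-0, so the genotypes were only 1.67-fold apart between their nearest arrays.

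The measured relatives of OSM34 went both ways. Of 23 genes on the thaumatin-like list, 19 had a named probe set, 1 of them the member OSM34 and 8 with too little signal to be tested. Among the other 10, 2 rose and 2 fell, that is, passed an adjusted p of 0.05 with limma (called, from here on), where 5.79% of all 13848 tested probe sets rose and 5.55% fell, and the median log2 change was 0.24 against −0.02 over all tested. AT2G28790 rose 1.45-fold (95% interval 1.22 to 1.71), with 424 ± 43.9 in the mutant and 294 ± 40.3 in Col-0 (adjusted p = 0.00709 with limma). AT1G75800 had 216 ± 22.7 in the mutant and 292 ± 5.38 in Col-0, a log2 change of −0.44 (adjusted p = 0.0100 with limma). Both calls ended without the variance trend, at adjusted p-values of 0.0656 and 0.0623.

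The remaining 2 calls on that list were lost when single arrays were left out. AT1G20030 had 35.6 ± 10.2 in the mutant and 18.9 ± 5.21 in Col-0 (adjusted p = 0.0485 with limma), and the call ended without any 1 array other than Col-0 replicate 2, with adjusted p-values up to 0.233. AT4G38660 had 96.8 ± 3.23 in the mutant and 123 ± 4.58 in Col-0 (adjusted p = 0.0469 with limma), and its call ended without any 1 of the 6 arrays, with adjusted p-values from 0.0707 to 0.174. AT1G70250, a receptor-like kinase of the same kind as AT4G18250, had 27.6, 60.2 and 32.0 in the mutant, against 31.2, 29.1 and 32.0 in Col-0 (adjusted p = 0.557 with limma). Its genotypes overlapped, and 1 mutant array stood above the rest.

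Of 22 genes on the CAP list, 19 had a named probe set, and 15 of those lay under the limit on all 6 arrays. Besides the member AT2G19970, 3 were tested, with 0 calls in limma and 1 at an unadjusted p under 0.05. Over all tested probe sets 11.3% were called. AT2G19990, which lies beside AT2G19970 with 1 gene between them, had 12.2, 27.3 and 20.4 in the mutant, against 20.9, 7.5 and 8.0 in Col-0 (adjusted p = 0.312 with limma). The gene between them, AT2G19980, was under the limit on all 6 arrays.

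Enzymes formed the third group, and only AT3G13610 among them is given a place in specialised metabolism here. AT3G13610 encodes F6'H1, the 2-oxoglutarate-dependent hydroxylase that commits feruloyl-CoA to scopoletin and other coumarins, compounds known from pathogen defence and from iron uptake by roots. Its signal was 68.8, 49.7 and 88.5 in the mutant, against 11.3, 5.91 and 10.6 in Col-0, at least 3.89-fold higher. AT2G22930, a UDP-glycosyltransferase gene, had 55.3, 45.6 and 75.0 in the mutant, against 1.12, 0.840 and 4.14 in Col-0. All Col-0 values of AT2G22930 lay far under the limit, and the lowest mutant array was 11.0 times the highest Col-0 array. AT1G68620, a carboxylesterase-type hydrolase gene, had 68.7, 60.3 and 55.9 in the mutant, against 14.6, 9.11 and 13.0 in Col-0. It was the 1 member on which mutant replicate 1 was the highest of the mutant arrays.

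Other phenylpropanoid and coumarin genes were tested in 3 cases, of which 0 rose and 1 fell. Over all tested probe sets 5.79% rose and 5.55% fell, so 3 genes do not describe the pathway. Of 20 genes on the phenylpropanoid and coumarin list, 6 had a named probe set. F6'H2 (AT1G55290), the paralogue of F6'H1, and S8H (AT3G12900), which hydroxylates scopoletin, lay under the limit on all 6 arrays. HCT, a hydroxycinnamoyl transferase upstream of feruloyl-CoA, fell, with 548 ± 26.7 in the mutant and 667 ± 46.7 in Col-0 (log2 change −0.28, adjusted p = 0.0446 with limma), but the call ended without any 1 of the 6 arrays, with adjusted p-values from 0.0540 to 0.191. COSY (AT1G28680), the coumarin synthase that closes the ring, had 127 ± 23.6 in the mutant and 104 ± 11.9 in Col-0 (adjusted p = 0.265 with limma). BGLU42, a glucosidase of coumarin glucosides, had 66.7 ± 15.0 in the mutant and 66.4 ± 7.27 in Col-0 (adjusted p = 0.979 with limma). Of the iron-deficiency list, 3 of 19 genes had a named probe set and 2 were tested. PYE, a transcription factor of that response, had 35.2 ± 2.74 in the mutant and 39.7 ± 8.66 in Col-0, and the peptide gene AT1G47400 (IMA1) had 19.0 ± 2.07 and 17.1 ± 2.03 (adjusted p = 0.690 and 0.792 with limma).

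Berberine bridge enzyme-like genes, a family of flavin-dependent oxidases, hold 2 of the 3 probe sets that met both limits and were left out of the members. Their genes AT1G26380 and AT1G26390 had 49.9 ± 9.47 and 42.0 ± 7.35 in the mutant, against 7.57 ± 3.85 and 4.97 ± 4.25 in Col-0. The family list had 27 genes and 22 named probe sets, of which 7 passed the filter for testing beside these. AT1G26420, in the same tandem cluster, had 29.4, 25.5 and 42.2 in the mutant, against 7.48, 11.5 and 16.3 in Col-0. It passed the filter through the mutant arrays alone, all Col-0 arrays lying under the limit, so no fold and no test are given for it. Of the other 6, 0 were called with limma, where 11.3% of all tested probe sets were called, and 3 had an unadjusted p under 0.05. These 3 went both ways, with log2 changes of 0.46 (AT4G20860), 0.23 (AT5G44400) and −0.54 (AT5G44410). Their limma adjusted p-values were 0.0673, 0.147 and 0.0982, and over the alternatives they went down to 0.0419, 0.117 and 0.0206. AT1G26400 and AT1G26410 of the cluster were too dim to be tested.

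AT5G09290 encodes a member of the inositol monophosphatase family related to SAL1, the phosphatase that turns PAP into AMP. Its signal was 30.5, 48.2 and 39.5 in the mutant, against 14.1, 14.7 and 14.4 in Col-0, at least 2.25-fold higher. The Col-0 arrays were near the limit and nearly equal, while the mutant arrays spread 1.58-fold. The related genes below were picked after their values had been seen. SAL2 (AT5G64000), another relative of SAL1, rose 2.58-fold (95% interval 1.93 to 3.46), with 105, 105 and 161 in the mutant, against 52.4, 36.1 and 54.4 in Col-0 (adjusted p = 4.71e-04 with limma). HL (AT5G54390), also a PAP phosphatase, rose 1.63-fold, with 319, 377 and 369 in the mutant, against 231, 213 and 209 in Col-0 (adjusted p = 3.18e-04 with limma). The genotypes overlapped for neither gene, as for 21.8% of all non-control probe sets, and both calls remained in each alternative tried, with adjusted p-values up to 0.0154 and 0.0121.

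The family did not move as a block. AT5G63990, a further gene of this family, had 29.7 ± 3.49 in the mutant and 20.7 ± 8.24 in Col-0 (adjusted p = 0.249 with limma). AT4G05090 had 51.1 ± 12.3 in the mutant and 73.7 ± 5.21 in Col-0, a log2 change of −0.55 that missed the threshold (adjusted p = 0.0528 with limma, and 0.00740 to 0.172 over its alternatives). In all, 2 of 4 tested relatives rose and 0 fell, where 5.79% of all tested probe sets rose and 5.55% fell, and the median log2 change of the 4 was 0.65 against −0.02 over all tested probe sets. SAL1 itself (AT5G63980) had no named probe set and was not analysed here.

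**Figure D2:**
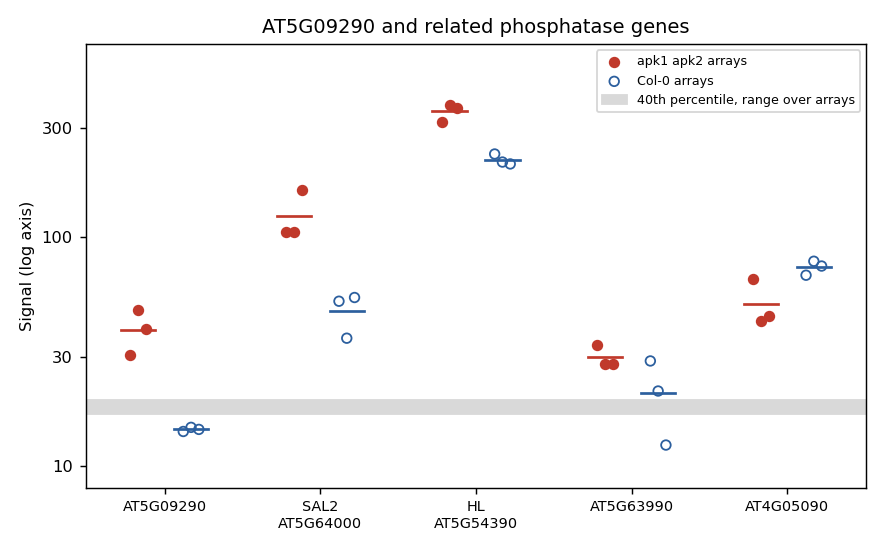
Signal of the member AT5G09290 and 4 related phosphatase genes (log axis), with filled red points for the 3 apk1 apk2 arrays, open blue points for the 3 Col-0 arrays, short bars for the means and a grey band for the range of the 40th percentile. AT5G09290 crosses the band, SAL2 and HL lie above it in both genotypes and higher in the mutant, and AT4G05090 has a lower mean in the mutant.

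Transport and calcium binding were each represented by 1 member. AT1G33440 encodes NPF4.4, a member of the NRT1/PTR transporter family whose NPF4 branch includes carriers of nitrate and of abscisic acid. It had 41.3, 54.2 and 38.9 in the mutant, against 9.05, 15.3 and 14.8 in Col-0, at least 2.57-fold higher. Of the other 4 NPF4 genes with a named probe set, picked after values were seen, AT1G59740 was the 1 bright enough to be tested. It had 56.5 ± 11.3 in the mutant and 34.7 ± 1.60 in Col-0, a 1.61-fold rise (adjusted p = 0.0222 with limma) that was no longer called without mutant replicate 3 (0.122), Col-0 replicate 1 (0.0647) or Col-0 replicate 3 (0.0712). AT1G21550, a calmodulin-like gene, was the dimmest member, with 32.4, 35.5 and 26.4 in the mutant, against 15.8, 10.7 and 11.0 in Col-0, at least 1.81-fold higher.

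The other 11 members carry no single gene name in the probe table used here. For 2 of them the table pairs the probe set with several genes, and both are of the kind that can bind related transcripts. 267053_s_at had 67.8, 102 and 130 in the mutant, against 15.3, 16.8 and 13.3 in Col-0, and 256376_s_at had 30.9, 40.1 and 91.0 in the mutant, against 4.61, 6.58 and 2.02 in Col-0. On both, mutant replicate 3 was the highest array and mutant replicate 1 the lowest of the mutant. The remaining 9 have no gene in the table, and their means lay between 35.0 and 83.5 in the mutant, with a median of 43.2, against 60.1 for the 10 named members.

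Among the 9 with no gene in the table, 259548_at had the highest mean in the mutant and the smallest coefficient of variation over the mutant arrays. It had 76.1, 82.7 and 91.8 in the mutant, against 14.0, 14.5 and 10.8 in Col-0. 267567_at had 41.8, 64.7 and 60.4 in the mutant, against 7.32, 11.0 and 6.39 in Col-0. 261763_at had 52.4, 42.6 and 66.1 in the mutant, against 14.0, 16 and 16.3 in Col-0, close under the limit. 266267_at had 37.6, 38.2 and 71.6 in the mutant, against 13.0, 8.57 and 11.9 in Col-0, so that 1 mutant array stood well above the other 2. The dimmer members with no gene in the table, 260225_at, 253181_at, 252334_at, 245148_at and 260179_at, had means between 35.0 and 43.2 in the mutant. Of these, 245148_at had the lowest Col-0 signals, 1.25, 1.91 and 3.96, and the lowest mutant array was 8.09 times the highest of them.

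Replicate spread within the mutant was wider for the members than for most transcripts of the same signal. The coefficient of variation over the 3 mutant arrays had a median of 21.2% over the 21 members, with 14 members under 25%. For comparison, 5506 other probe sets reached 1.5 times the limit on all mutant arrays and had means in the same range, and their median was 11.8%, with quartiles at 7.66% and 17.3%. The medians differed in the same direction at each level of signal, over few members each. They were 21.1% (6 members) against 13.5% for means of 30 to 40 and 21.9% (8 members) against 12.9% for 40 to 60. For 60 to 110 they were 14.5% (7 members) against 10.8%, and some members there lay under the median of the others. These are descriptions, since the members were chosen on the same mutant arrays. OSM34 and 256376_s_at had the largest coefficients, 57.9% and 59.8%, followed by 266267_at (39.6%) and 252334_at (32.5%). AT2G44240, 259548_at and AT1G68620 had the smallest, 5.97%, 9.42% and 10.5%, with AT2G19970 next at 14.5%.

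**Figure D3:**
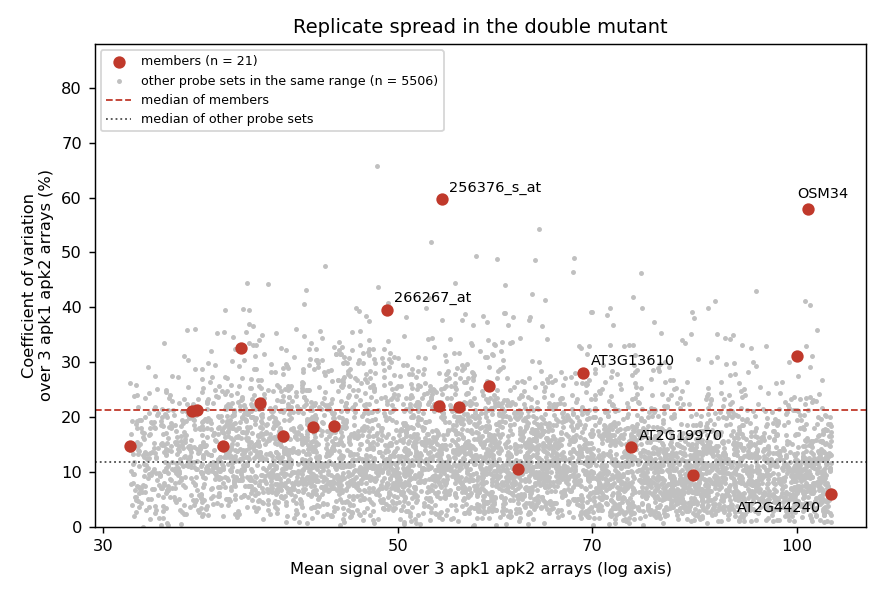
Coefficient of variation over the 3 apk1 apk2 arrays against mean signal on them (log axis), for the 21 members (red) and 5506 other probe sets of the same range (grey), with a dashed line at the members' median (21.2%) and a dotted line at that of the others (11.8%). OSM34 and 256376_s_at lie highest among the members, and AT2G44240 lies lowest, at the bottom right.

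The high and low mutant arrays were often the same ones. Mutant replicate 1 had the lowest of the 3 mutant signals for 12 of 21 members (57.1%), against 34.6% of the comparison probe sets, and the highest for 1 member (4.76% against 30.1%). Mutant replicate 3 was the highest for 12 members (57.1% against 29.4%). The median ratio of a member's signal to its own mutant mean was 0.911 on replicate 1, 0.990 on replicate 2 and 1.10 on replicate 3, while in the comparison probe sets it was 0.989, 1.01 and 0.986. The pattern was not shared by all members: AT1G68620, AT1G33440, 245148_at and AT1G21550 had their lowest mutant signal on replicate 3. Median signals over all probe sets were 32.6, 34.5 and 32.9 on mutant replicates 1, 2 and 3.

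**Figure D4:**
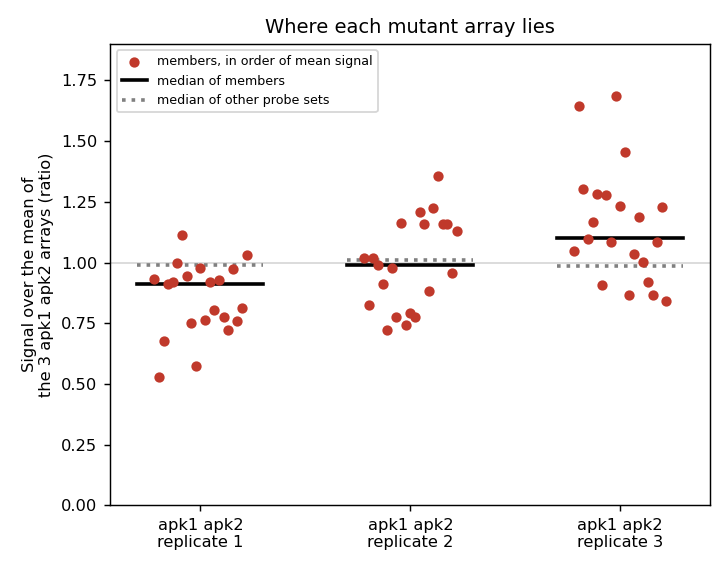
Signal of each member on each apk1 apk2 array divided by its mean over those 3 arrays; points are the 21 members in order of mean signal, solid bars their medians and dotted bars the medians of the 5506 other probe sets. Member medians are 0.911, 0.990 and 1.10 on replicates 1, 2 and 3, and the other probe sets stay between 0.986 and 1.01.

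How far members lay from the limits differed. For 4 members all Col-0 signals were under 50% of their array's limit (AT2G44240, AT2G22930, 256376_s_at and 245148_at), and for 11 at least 1 Col-0 signal was over 80% of it. The lowest mutant signal was between 1.67 and 18.8 times the highest Col-0 signal, with a median of 3.84. Nearest to 1.5 times the limit in the mutant were AT1G21550 (1.54 times on its lowest array), AT4G18250 (1.57) and 252334_at (1.61). Just outside were 249790_at (1.49), the protease gene AT3G49340 (1.48) and 255941_at (1.47). On the Col-0 side 253181_at and 261763_at (both 0.963 of the limit) and 267053_s_at (0.957) were just inside, while 256398_at (1.03), the peroxidase gene Prx37 (1.06) and 250589_at (1.08) were just outside. Prx37 had 45.3, 88.2 and 101 in the mutant, against 8.49, 11.8 and 17.8 in Col-0.

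The membership depended on where the limit was drawn. With the 30th percentile of each array as the limit (7.87 to 10.5) 16 probe sets met the rule and 4 of the 21 were among them. With the 50th percentile (32.5 to 34.5) 24 met it and 6 of the 21 were among them. Asking for 2 times the limit in the mutant kept 12, and quantile normalization kept all 21. AT2G44240 was the 1 member that met all 4 of these settings. Without mutant replicate 1 the rule gave 35 probe sets and without Col-0 replicate 3 it gave 33.

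None of the tested genes beside the named members on the chromosomes was called. The 2 protein-coding genes on either side of each of the 10 named members are 40 genes, 25 with a named probe set and 13 tested. In limma 0 of the 13 were called (11.3% of all tested probe sets were called), 1 had an unadjusted p under 0.05, and the median log2 change was −0.04. That 1 gene, AT1G68600, 2 genes from AT1G68620, had 372 ± 26.2 in the mutant and 463 ± 48.4 in Col-0 (adjusted p = 0.0559 with limma). It was called as lower with quantile normalization and without Col-0 replicate 2. AT2G44250 next to AT2G44240, AT5G09280 next to AT5G09290 and AT2G22940 next to AT2G22930 lay under the limit on all 6 arrays. Neighbours were chosen by position, after the members were known.

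**Figure D5:**
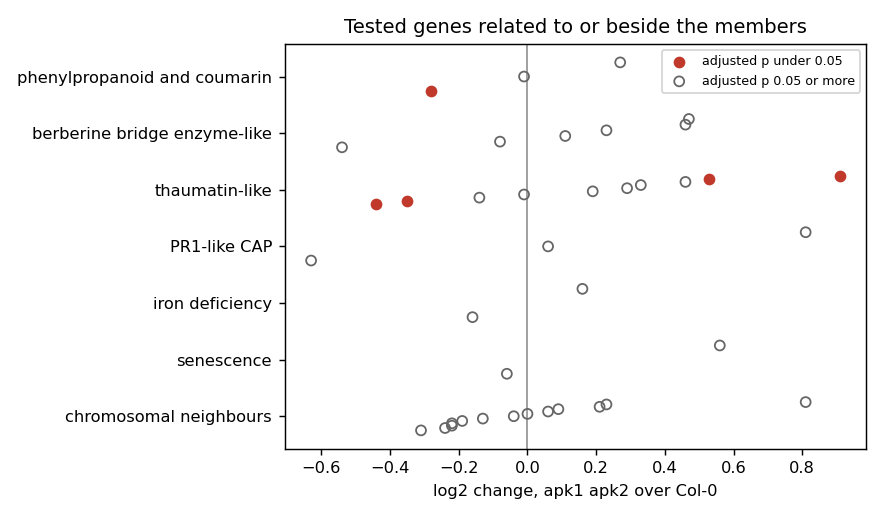
Fitted log2 change (apk1 apk2 over Col-0) of tested genes on the 6 lists of related genes and of 13 chromosomal neighbours of the named members; filled red points have an adjusted p under 0.05 with limma, open points do not, and neither members nor AT1G26420 are plotted. The lists hold 2 higher and 3 lower calls, and the neighbours none.

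Over the 6 lists together, 26 genes that are no members were tested, AT1G26420 left out. Of these 2 rose and 3 fell (limma, adjusted p under 0.05), where 5.79% of all tested probe sets rose and 5.55% fell, and the median log2 change was 0.14 against −0.02 over all tested. The senescence list had 2 tested genes and 0 calls (1 at an unadjusted p under 0.05). WRKY53, a transcription factor of early senescence, had 106 ± 19.7 in the mutant and 73.8 ± 26.5 in Col-0 (adjusted p = 0.119 with limma, and 0.0109 to 0.353 over its alternatives).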

How the data were processed

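RNA of 6 samples, 3 apk1 apk2 and 3 Col-0, was read on ATH1 arrays. The deposited values are intensities on a linear scale, made by the authors with MAS5 and GCOS per the submitters' processing notes; versions are not given in the sources used here. Each array had been scaled, since its mean without the top and bottom 2% is 100.01. MAS5 signals of dim probe sets are noisy, and no detection calls were used here, so "switched on" means a signal that crosses the limit. The 40th percentile was taken over all probe sets of an array.

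Probe sets at or above the limit on at least 3 of 6 arrays (13848, controls left out) were fitted on the log2 scale, without an offset, with limma 3.58.1 in R 4.3.3, lmFit and eBayes with a variance trend, genotype alone, two-sided, Benjamini-Hochberg adjusted, threshold 0.05. The fit was run on simulated data with independent normal noise, which checks the code and not the calls made here. All 21 members passed this filter through the mutant arrays alone, as the rule requires. The shares over all tested probe sets include the members and others that passed in this way, which the list counts leave out. Where several probe sets read a gene, the one of highest mean log2 signal stood for it. Alternatives were no filter, no variance trend, quantile normalization, an offset of 16, the replicate block and leaving out each array.

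Genes were named through the platform annotation and gene names of TAIR10.1, with 13436 probe sets matched to 1 gene. All members that name 1 gene are named, unnamed ones by probe set. Members and lists were chosen with earlier results of these data known. The lists covered phenylpropanoid and coumarin, berberine bridge enzyme-like, thaumatin-like, CAP, iron deficiency and senescence genes, with leaf, root and floral markers. No floral marker had a named probe set. Promoter sequences were not analysed here.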

Additional observations from a re-analysis of the deposited data

How the results depend on the processing

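The count of 21 members was 71 at 1 times the limit, with all 21 among them, and 12 at 2 times it, and it ranged from 22 to 35 when 1 array was left out. It was 16 and 24 at the 30th and 50th percentiles, 22 after quantile normalization and 21 with percentiles over non-control probe sets, a setting chosen after seeing the data. The members' median mutant signal, 53.7, ranged from 47.5 to 54.9 without 1 mutant array. Their median coefficient of variation, 21.2%, ranged from 14.7% (without mutant replicate 3) to 20.3%. A coefficient over 2 arrays is not on a par with one over 3. No value of the comparison probe sets over 2 arrays is given here, so whether the wider spread of members holds without 1 array was not tested. The 1571 calls over all probe sets became 880 without the variance trend and ranged from 1029 (without mutant replicate 3) to 1585 without 1 array, with 1030 without Col-0 replicate 3. The calls on the lists were 6 with AT1G26420 and 5 without it (a count added after seeing the data). The counts that follow include AT1G26420 where it passed, although no test is given for it here. They were 3 with no filter, 1 without the variance trend and from 2 to 4 without 1 array. The 1 call without the variance trend was AT1G26420, so the 5 others were all lost in that setting. AT2G28790 and AT1G75800 stayed called without any 1 array, with limma adjusted p-values up to 0.0365 and 0.0479. By construction, leaving out an array or lowering the multiple of the limit can only add members. Why the limma counts changed between settings was not tested. With the replicate number as a block 1789 probe sets were called (883 higher, 906 lower), among them 1 neighbour, AT1G68600. Deviations of same-numbered samples correlated at 0.0824, 0.0772 and 0.11, each sample best with its own number. These correlations are weak, and with 3 arrays per genotype such a match can arise without pairing, so they do not establish it. The number of arrays, 3 per genotype, limits the precision, and signals near the limit have little order.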

Other observations

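Families of 2 other members, collected by name from the gene table after values had been seen, gave no calls. Over all tested probe sets 11.3% were called, so the few genes tested here say little about either family. Of 5 tested calmodulin-like genes, the family of AT1G21550, 0 passed an adjusted p of 0.05 with limma and 1 had an unadjusted p under 0.05, and their log2 changes lay between −0.59 and 0.17. AT2G15680 had 23.2 ± 0.992 in the mutant and 35.3 ± 7.56 in Col-0 (SD, n = 3, adjusted p = 0.120 with limma). Of 2 tested carboxylesterase genes, the kind of AT1G68620, 0 passed and 1 had an unadjusted p under 0.05. AT5G23530 had 25.7, 33.0 and 30.4 in the mutant, against 19.0, 14.0 and 20.1 in Col-0 (adjusted p = 0.0729 with limma, and 0.0421 to 0.22 over its alternatives).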
